A study of Bos taurus with 19 samples.

Results

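Fibrillar matrix and microfibril genes encode the collagens, proteoglycans, fibulins and elastic fibre proteins of connective tissue, and they were followed here in the theca interna, the inner layer of the ovarian follicle wall. The list held 37 genes, written down by name: fibril-forming, fibril-associated, filament and network collagens, small leucine-rich proteoglycans, fibulins, elastic and microfibril proteins, 3 other secreted matrix proteins and 3 fibroblast surface proteins. A gene was represented by the brightest of its probe sets that carry a single gene symbol. By this rule 30 of the 37 genes were measured, out of 9156 genes with such a probe set, and COL5A1, COL6A3, COL8A1, COL14A1, COL16A1, FBLN2 and ADAMTSL4 are not analysed here. All 30 measured genes passed the filter on low signals.

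The theca interna came from ovaries of freshly slaughtered non pregnant Bos taurus heifers, and each of the 19 Affymetrix bovine arrays carried the RNA of 1 follicle. Small follicles of 3 to 5 mm gave 10 healthy arrays, 5 from follicles whose basal granulosa cells were rounded and 5 from follicles where they were columnar, and 5 atretic arrays, atresia being the degeneration of a follicle. Large healthy follicles of over 9 mm gave 4 arrays, and a further large follicle that the study examined is not analysed here. The granulosa cells had been scraped off before the theca was dissected, and the sources do not say which follicles came from different animals, so the p-values speak only of the variation among these follicles, some of which may share an animal. The labels gave Trizol and RNeasy columns for the RNA of large, RNeasy mini columns for small healthy and RNAqueous Micro columns for atretic follicles. They gave 2 to 5 µg of RNA labelled for the healthy groups and 250 ng for the atretic group. The study's methods instead describe 1 procedure for its healthy follicles, and they do not cover the atretic arrays. Reagent and follicle group therefore cannot be told apart.

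Collagen chains assemble into triple helices that are secreted, trimmed and laid side by side as fibrils, which give a tissue its tensile strength. Small leucine-rich proteoglycans bind along these fibrils and regulate their diameter and spacing. Microfibrils built on fibrillin form the scaffold on which elastin is deposited, with fibulins and microfibril-associated proteins as linkers, and together they let a wall stretch and recoil. In the ovary such matrix is made by stromal and thecal cells, and it is remodelled as the follicle grows or regresses.

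In large compared with small healthy follicles, 11 of the 30 genes were higher and 0 were lower by limma at an adjusted p under 0.05. The Benjamini-Hochberg adjustment ran over 15570 probe sets. The 11 genes are 36.7%, beside 2.59% of all probe sets tested that were higher and 0.983% that were lower. Each of the 30 genes was read by its brightest probe set, whereas all probe sets also include dimmer ones and ones without a gene symbol. The 11 genes were COL1A1 and COL1A2, FBLN5, ELN, MFAP2, MFAP4 and MFAP5, FN1, PCOLCE and CCDC80, and THY1. Their increase was between 1.31-fold for COL1A2 and 3.93-fold for MFAP5, and 2 of them, MFAP5 and CCDC80, reached a 2-fold change (0.629% of probe sets). The median log2 difference of the 30 genes was 0.32, beside -0.005 over all probe sets tested, and 24 of the 30 differences were above 0. None of the 7 small leucine-rich proteoglycans passed. The gene list was chosen with earlier results of these data known. The study had reported MFAP5, CCDC80, COL14A1 and ADAMTSL4, all on the list, as higher in large follicles. COL14A1, a fibril-associated collagen, and ADAMTSL4 are not analysed here, so the counts do not include them. The count of 11 dropped to 4 without large replicate 2, to 5 without large replicate 4, to 6 without columnar replicate 1, to 7 without large replicate 3 and to 7 without columnar replicate 2. It was 5 with the columnar follicles alone as controls and 1, FN1, with the rounded follicles alone. The genes that were higher in each of these fits except the one without large replicate 3 were all among the 11. With the rounded follicles alone, the log2 differences of the genes that lost their call ran from 0.405 for COL1A2 to 1.915 for MFAP5.

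**Figure D1:**
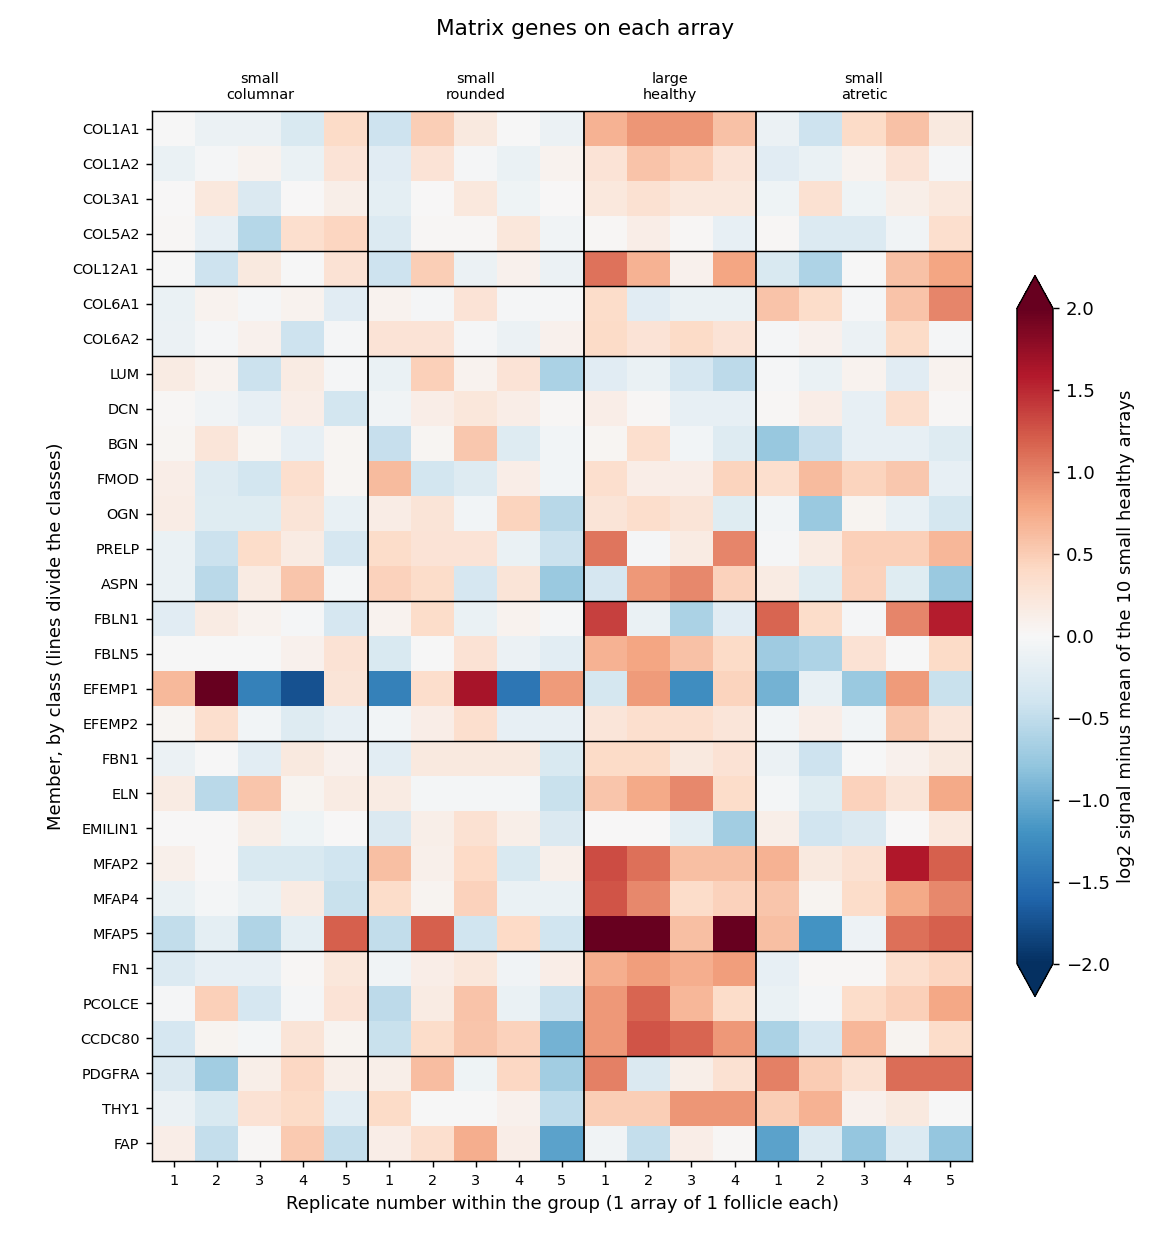
Signal of each of the 30 matrix genes (rows, by class) on each of the 19 arrays (columns, by follicle group), as log2 signal minus the gene's mean over the 10 small healthy arrays; red is above and blue below that mean, and the colours stop at 2 on either side. The 4 large arrays are red for COL1A1, FBLN5, FN1 and CCDC80, and EFEMP1 varies among small healthy follicles over 3.9 log2 units. Among the proteoglycan rows, PRELP and ASPN are each red on the 2 large arrays that stood above the small healthy range.

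Theca markers were clear on the arrays, whereas a few arrays had a raised signal of the granulosa enzyme CYP19A1. Each of the 7 steroidogenic theca genes examined had a mean log2 signal of at least 3 in every group, and the mean of the 7 genes lay between 7.96 and 9.46 on the large, 7.63 and 8.97 on the small healthy and 6.41 and 8.71 on the atretic arrays. CYP19A1 had a log2 signal of 5.8 on large replicate 2, 3.9 on columnar replicate 1 and 3.7 on large replicate 3. Its signal was 3.3 on large replicate 4 and 1.7 to 2.3 on the other 15 arrays. Of the other granulosa genes examined, FSHR and FOXL2 had a mean under 3 in every group. The mean of the 9 granulosa genes lay between 5.79 and 7.44 on the large, 5.98 and 6.89 on the small healthy and 4.93 and 6.44 on the atretic arrays. Without large replicate 2 and columnar replicate 1 the number of matrix genes that were higher in large follicles was 1, again FN1. The log2 differences of the genes that lost their call then ran from 0.322 for COL1A2 to 1.91 for MFAP5. With all arrays they were 0.395 for COL1A2 and 1.975 for MFAP5. Each was smaller than with all arrays except that of THY1, at 0.744 beside 0.69. Poly-A control transcripts, which are spiked into the RNA to follow its labelling, averaged 5.88 on large and 4.57 on small healthy arrays (exact permutation test, two-sided, p = 9.99e-04, the smallest that 1001 splits allow, and 0.00799 after adjustment over 8 measures). The 3'/5' signal differences of actin and GAPDH, a sign of RNA integrity, differed by -0.17 and 0.05 (exact permutation test, p = 0.501 and 0.496). The part of these differences in the results was not tested. In these bulk samples fewer cells of a type and less RNA per cell cannot be told apart.

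Among the fibril-forming collagens, the genes of type I collagen were higher in large follicles and those of types III and V did not pass. COL1A1, which encodes the alpha 1 chain of type I collagen, had log2 signals of 9.5, 9.7, 9.7 and 9.4 in large follicles and a lowest, median and highest signal of 8.4, 8.75 and 9.3 in the 10 small healthy ones. Every large array was above every small healthy array, as it was for 5 of the 30 genes (COL1A1, FBLN5, FN1, CCDC80 and THY1) beside 1.09% of probe sets. The log2 difference was 0.765 ± 0.146 (SE), with an adjusted p of 0.0142. In small atretic follicles COL1A1 gave 8.7, 8.4, 9.2, 9.4 and 9.0, within or just above the small healthy range, and the difference was 0.13 ± 0.166 (adjusted p = 0.561). A dim probe set of COL1A1, with a mean signal of 3.11 in small healthy follicles, gave -0.035 in large and -0.23 in atretic follicles, with neither passing.

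COL1A2, the partner chain of type I collagen, had signals of 11.9, 12.2, 12.1 and 11.9 in large and of 11.4, 11.6 and 11.9 (lowest, median and highest) in small healthy follicles. The 2 lower large signals equalled the highest small healthy one. The log2 difference was 0.395 ± 0.103 (adjusted p = 0.0467), and it did not pass under 16 of 25 alternatives, with values between 0.322 and 0.4375 and adjusted p up to 0.278. In atretic follicles the signals of 11.4, 11.5, 11.7, 11.9 and 11.6 covered the small healthy range. A second probe set of COL1A2 gave 0.26 ± 0.0874 in large follicles and did not pass (adjusted p = 0.104).

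COL3A1, the chain of type III collagen, which is abundant in distensible tissues, gave 11.8, 11.9, 11.8 and 11.8 in large and 11.3, 11.6 and 11.8 in small healthy follicles. The log2 difference of 0.235 ± 0.0916 had an adjusted p of 0.142. Its atretic signals were 11.5, 11.9, 11.5, 11.7 and 11.8, a difference of 0.09 ± 0.0943 (adjusted p = 0.471). COL5A2, a chain of type V collagen that nucleates fibrils and whose gene neighbours COL3A1 with 0 coding genes between them, differed by 0.005 ± 0.148 in large and -0.05 ± 0.146 in atretic follicles.

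COL12A1 encodes a fibril-associated collagen that links neighbouring fibrils. Its log2 signals were 10, 9.6, 9.0 and 9.7 in large, 8.5, 8.9 and 9.4 (lowest, median and highest) in small healthy and 8.6, 8.3, 8.9, 9.5 and 9.7 in atretic follicles. The 3 highest large signals lay above the small healthy range. The difference in large follicles was 0.665 ± 0.179 (95% interval 0.285 to 1.05), just short of passing with an adjusted p of 0.0534, and it passed without large replicate 3 (0.857, adjusted p = 0.0288), without rounded replicate 1 (0.619, adjusted p = 0.0496) and without rounded replicate 2 (0.719, adjusted p = 0.0418). The difference in atretic follicles was 0.09 ± 0.204. A dimmer probe set of COL12A1 differed by 0.885 ± 0.245 in large (adjusted p = 0.0598) and by -0.19 ± 0.273 in atretic follicles.

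COL6A1 and COL6A2 encode chains of type VI collagen, which forms beaded filaments around cells, and the genes neighbour each other with 0 coding genes between them. COL6A1 had signals of 10.7, 10.5, 10.1, 10.7 and 11.1 in atretic follicles and of 9.9, 10.1 and 10.4 in small healthy ones, so that 4 of the 5 atretic arrays lay above all small healthy arrays. The log2 difference was 0.49 ± 0.123 with an adjusted p of 0.00962. In large follicles the signals were 10.5, 9.9, 10 and 10, with replicate 1 apart from the others, and the difference was -0.03 ± 0.108 (adjusted p = 0.883). COL6A2 showed the other order, with 4.8, 4.7, 4.8 and 4.7 in large, 4.0, 4.4 and 4.7 in small healthy and 4.4, 4.5, 4.3, 4.8 and 4.4 in atretic follicles. Its differences were 0.33 ± 0.109 in large (adjusted p = 0.0994) and 0.06 ± 0.109 in atretic follicles (adjusted p = 0.69). A dimmer probe set of COL6A1, with a mean signal of 5.21 in small healthy follicles, was higher in large follicles by 0.44 ± 0.11 (adjusted p = 0.0405) and in atretic follicles by 0.37 ± 0.117 (adjusted p = 0.0262). A second probe set of COL6A2 gave -0.265 and -0.21, the opposite sign of the first in each comparison, with neither value passing.

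Small leucine-rich proteoglycans were the largest class measured. Of the 7 genes, 0 passed in either direction in large follicles, with log2 differences from -0.305 for LUM to 0.545 for PRELP and a median of 0.15, which was 0.0833 without large replicate 2. In atretic follicles 0 of the 7 passed, with differences from -0.36 for BGN to 0.36 for FMOD and a median of -0.05.

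PRELP, which links basement membranes to connective tissue, had log2 signals of 5.1, 4.0, 4.2 and 5.0 in large and 3.6, 4.05 and 4.4 in small healthy follicles. The large follicles split into 2 above and 2 within the small healthy range, and the difference was 0.545 ± 0.216 (adjusted p = 0.146). Its atretic signals of 4.0, 4.2, 4.5, 4.5 and 4.7 gave a difference of 0.35 ± 0.161 (adjusted p = 0.102). A dimmer probe set of PRELP, with a mean signal of 3.17 in small healthy follicles, was lower by 0.395 ± 0.0979 in large (adjusted p = 0.0396) and by 0.37 ± 0.0843 in atretic follicles (adjusted p = 0.00648). The probe sets of PRELP thus had opposite signs in both comparisons.

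ASPN, asporin, a proteoglycan that binds collagen and restrains TGFβ, gave 6.5, 7.7, 7.8 and 7.3 in large and 6.1, 6.9 and 7.4 in small healthy follicles, a difference of 0.485 ± 0.259 (adjusted p = 0.26). BGN, biglycan, gave 6.4, 6.7, 7.0, 7.0 and 6.9 in atretic and 6.7, 7.2 and 7.7 in small healthy follicles. Its atretic difference of -0.36 ± 0.139 had an adjusted p of 0.0578, and passed without rounded replicate 1 (-0.411, adjusted p = 0.0225) and without rounded replicate 4 (-0.389, adjusted p = 0.0491). A second probe set of BGN was lower in atretic follicles by 0.44 ± 0.157 (adjusted p = 0.0428). In large follicles the BGN probe sets differed by 0.015 and -0.055, with neither passing.

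FMOD, fibromodulin, a regulator of fibril assembly whose gene neighbours PRELP, differed by 0.265 in large and 0.36 in atretic follicles (adjusted p = 0.328 and 0.102). The atretic value passed without atretic replicate 5 (0.49, adjusted p = 0.0466) and without rounded replicate 1 (0.431, adjusted p = 0.0301). LUM, lumican, and DCN, decorin, which space collagen fibrils and whose genes neighbour each other, differed by -0.305 and -0.045 in large and by -0.05 and 0.07 in atretic follicles. DCN lay between 10.8 and 11.5 on all 19 arrays, and the 95% interval of its difference in large follicles was -0.268 to 0.178. OGN, osteoglycin, differed by 0.15 and -0.25, with adjusted p of 0.593 and 0.227.

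**Figure D2:**
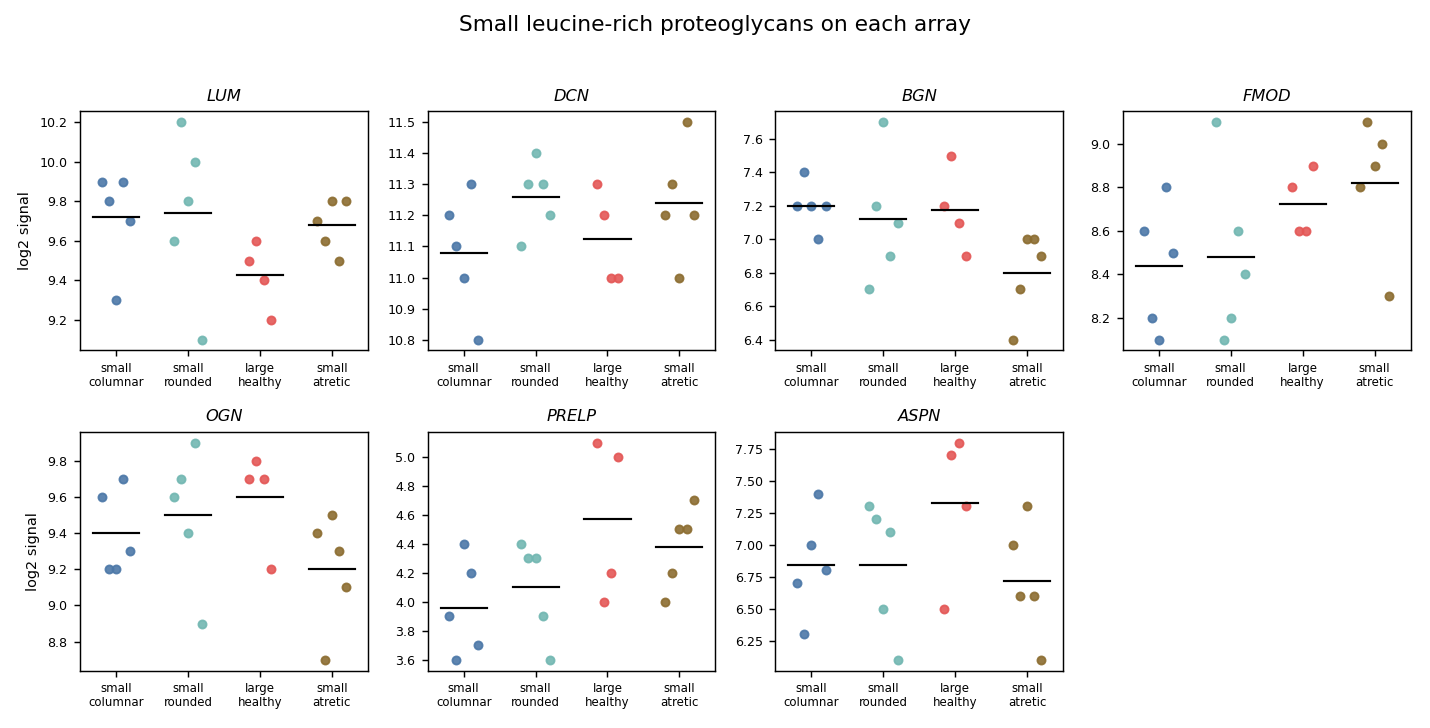
Log2 signals of the 7 small leucine-rich proteoglycans on each of the 19 arrays, with 1 point per follicle and a line at the group mean; each panel has its own scale. The large and atretic groups overlap the small healthy ones for every gene, and 2 large follicles stand above the small healthy range for PRELP and for ASPN.

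Of the fibulins, which bridge elastin, microfibrils and basement membranes, FBLN5 was higher in large and FBLN1 in atretic follicles. FBLN5, which is needed for the assembly of elastic fibres, gave 9.6, 9.7, 9.5 and 9.3 in large and 8.6, 8.9 and 9.2 in small healthy follicles. Every large array was above every small healthy array, and the difference was 0.615 ± 0.112 (adjusted p = 0.0104). Atretic signals of 8.2, 8.3, 9.2, 8.9 and 9.3 spread to both sides of the small healthy range, a difference of -0.13 ± 0.166 (adjusted p = 0.56).

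FBLN1, which binds fibronectin and basement membrane proteins, gave 9.0, 8.2, 7.8, 8.8 and 9.4 in atretic and 7.5, 7.85 and 8.2 in small healthy follicles. The 3 highest atretic signals exceeded all small healthy ones, and the difference was 0.81 ± 0.198 (adjusted p = 0.00875). A second probe set of FBLN1 gave 0.56 ± 0.228 and did not pass (adjusted p = 0.0699). In large follicles the signals were 9.2, 7.7, 7.2 and 7.6, with replicate 1 highest, and the difference was 0.095 ± 0.254 (adjusted p = 0.837).

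EFEMP2, fibulin 4, which recruits lysyl oxidase to elastin, gave 5.8, 5.9, 5.9 and 5.8 in large, 5.3, 5.5 and 5.9 in small healthy and 5.5, 5.7, 5.5, 6.1 and 5.8 in atretic follicles. The groups overlapped, with differences of 0.29 ± 0.112 (adjusted p = 0.138) and 0.16 ± 0.12 (adjusted p = 0.308). EFEMP1, fibulin 3, differed by -0.075 ± 0.683 and -0.29 ± 0.603. Its other probe sets had means of 1.88 and 1.66 in small healthy follicles, under the detection limit of 3, and were not tested. The large standard errors of EFEMP1 came with small healthy signals that ran from 2.7 to 6.6, and its 95% interval in large follicles, -1.53 to 1.38, included changes of 2-fold in either direction.

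The elastic and microfibril genes held 4 of the 11 genes that were higher in large follicles, among 6 measured, with a median log2 difference of 0.71. MFAP5, a microfibril-associated glycoprotein that binds fibrillin, gave 6.6, 6.5, 5.1 and 7.7 in large and 3.9, 4.2 and 5.7 in small healthy follicles. Large replicates 1, 2 and 4 lay above all small healthy arrays and replicate 3 within them, and the difference was 1.975 ± 0.425, a 3.93-fold change (adjusted p = 0.0243). It did not pass without large replicate 2 (1.97, adjusted p = 0.0539) or large replicate 4 (1.57, adjusted p = 0.103). The atretic signals of 5.1, 3.3, 4.4, 5.6 and 5.7 gave a difference of 0.32 ± 0.394 (adjusted p = 0.545).

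MFAP2, the related glycoprotein MAGP1, was higher in both large and atretic follicles. Its signals were 7.9, 7.7, 7.2 and 7.2 in large, 7.3, 6.8, 6.9, 8.2 and 7.8 in atretic and 6.2, 6.65 and 7.2 (lowest, median and highest) in small healthy follicles. The differences were 0.9 ± 0.185 in large (adjusted p = 0.0193) and 0.8 ± 0.216 in atretic follicles (adjusted p = 0.0136). These comparisons share the 10 small healthy arrays. Without large replicate 2 the first was 0.833 with an adjusted p of 0.056.

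MFAP4, which binds elastin and fibrillin, was likewise higher in both groups, at signals near the detection limit of 3. It gave 4.5, 4.2, 3.6 and 3.7 in large, 3.8, 3.3, 3.6, 4.0 and 4.2 in atretic and 2.8, 3.15 and 3.7 in small healthy follicles. In large follicles the difference was 0.76 ± 0.174 (adjusted p = 0.0303), and it did not pass without large replicate 1 (0.593, adjusted p = 0.0635), large replicate 2 (0.693, adjusted p = 0.0742), columnar replicate 1 (0.744, adjusted p = 0.0526) or columnar replicate 2 (0.756, adjusted p = 0.0511). In atretic follicles it was 0.54 ± 0.152 (adjusted p = 0.0162), and did not pass without atretic replicate 5 (0.435, adjusted p = 0.0579).

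ELN encodes elastin itself. Its signals were 4.8, 5.0, 5.2 and 4.6 in large, 3.7, 4.25 and 4.8 in small healthy and 4.2, 4.0, 4.7, 4.5 and 5.0 in atretic follicles. The large group overlapped the highest small healthy arrays, with a difference of 0.66 ± 0.167 (adjusted p = 0.0424) that did not pass under 20 of 24 alternatives (0.56 to 0.76, adjusted p up to 0.137). A dimmer probe set of ELN, with a mean signal of 3.68 in small healthy follicles, differed by 0.095 ± 0.0819 (adjusted p = 0.486). In atretic follicles the probe sets of ELN differed by 0.24 and -0.1, with neither passing.

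FBN1, fibrillin 1, the main subunit of microfibrils, gave 9.5, 9.5, 9.3 and 9.4 in large and 8.8, 9.15 and 9.3 in small healthy follicles. Its difference of 0.315 ± 0.108 had an adjusted p of 0.108, and in atretic follicles it was -0.05 ± 0.113. EMILIN1, a glycoprotein of the elastin and microfibril interface, was the gene of the class with negative values in both comparisons, -0.215 ± 0.133 and -0.07 ± 0.114 (adjusted p = 0.328 and 0.652).

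**Figure D3:**
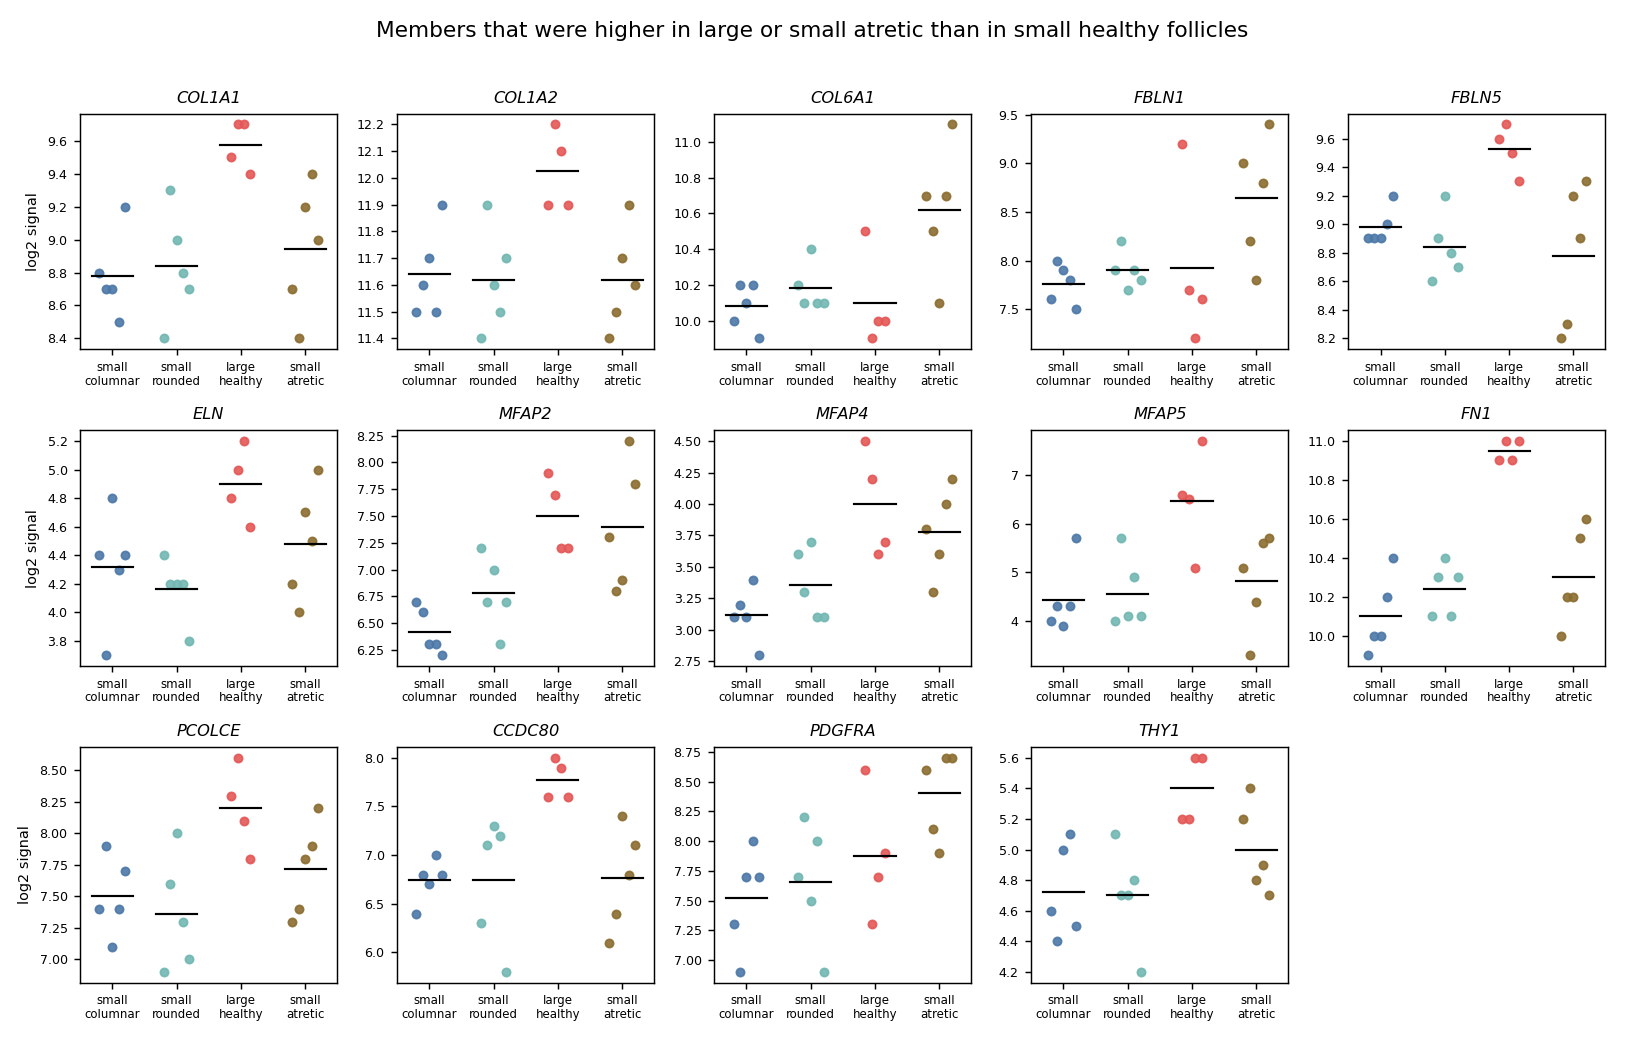
Log2 signals of the 14 matrix genes that were higher in large or in small atretic than in small healthy follicles, with 1 point per follicle and a line at the group mean; each panel has its own scale. For COL1A1, FBLN5, FN1, CCDC80 and THY1 every large follicle stands above all 10 small healthy ones, while COL6A1, FBLN1, PDGFRA, MFAP2 and MFAP4 are the 5 genes higher in atretic follicles.

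All 3 other secreted matrix proteins were higher in large follicles, with a median log2 difference of 0.78. FN1, fibronectin, the glycoprotein on which cells assemble collagen and microfibrils, gave 10.9, 11, 10.9 and 11 in large and 9.9, 10.15 and 10.4 in small healthy follicles. The groups stood apart, with a difference of 0.78 ± 0.0982, or 1.72-fold, and an adjusted p of 9.71e-04, the lowest of the 30 genes. FN1 passed under all 25 alternatives. Its atretic signals of 10, 10.2, 10.2, 10.5 and 10.6 gave a difference of 0.13 ± 0.109 (adjusted p = 0.365).

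CCDC80, a secreted protein that binds matrix, gave 7.6, 8.0, 7.9 and 7.6 in large and 5.8, 6.8 and 7.3 in small healthy follicles. The groups did not overlap, and the difference was 1.035 ± 0.224, or 2.05-fold (adjusted p = 0.0249). It did not pass without large replicate 2 (0.96, adjusted p = 0.0626), 3 (0.993, adjusted p = 0.0694) or 4 (1.09, adjusted p = 0.0615). The atretic signals of 6.1, 6.4, 7.4, 6.8 and 7.1 differed by 0.02 ± 0.241.

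PCOLCE encodes the enhancer of the protease that trims procollagen. It gave 8.3, 8.6, 8.1 and 7.8 in large, 6.9, 7.4 and 8.0 in small healthy and 7.3, 7.4, 7.8, 7.9 and 8.2 in atretic follicles. Large replicates 1, 2 and 3 lay above the small healthy range, and the difference was 0.77 ± 0.198 (adjusted p = 0.0454), which did not pass under 17 of 25 alternatives (0.633 to 0.903, adjusted p up to 0.252). A second probe set of PCOLCE was higher by 0.815 ± 0.162 (adjusted p = 0.0161). In atretic follicles PCOLCE differed by 0.29 ± 0.188 (adjusted p = 0.239).

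The fibroblast surface proteins did not move together. THY1, a glycoprotein of fibroblasts and other stromal cells, gave 5.2, 5.2, 5.6 and 5.6 in large and 4.2, 4.7 and 5.1 in small healthy follicles, and every large array was above every small healthy one. The difference was 0.69 ± 0.159 (adjusted p = 0.0311), and it did not pass without large replicate 3 (0.623, adjusted p = 0.0985), large replicate 4 (0.623, adjusted p = 0.12), columnar replicate 1 (0.678, adjusted p = 0.0535) or columnar replicate 2 (0.656, adjusted p = 0.0514). In atretic follicles THY1 gave 5.2, 5.4, 4.8, 4.9 and 4.7, a difference of 0.29 ± 0.154.

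PDGFRA, the receptor through which platelet-derived growth factor acts on mesenchymal cells, was higher in atretic follicles. Its signals were 8.6, 8.1, 7.9, 8.7 and 8.7 in atretic, 6.9, 7.7 and 8.2 in small healthy and 8.6, 7.3, 7.7 and 7.9 in large follicles. The atretic difference was 0.81 ± 0.214 (adjusted p = 0.0123), with 3 atretic arrays above all small healthy ones. The difference in large follicles was 0.285 ± 0.254 (adjusted p = 0.502). Other probe sets of PDGFRA had means of 2.91 and 1.99 in small healthy and of 2.62 and 2.08 in atretic follicles. These means lay under the detection limit of 3, and the probe sets were not tested. FAP, a surface protease of activated fibroblasts, gave 2.7, 3.5, 3.0, 3.5 and 3.0 in atretic and 2.7, 3.9 and 4.5 in small healthy follicles. Its difference of -0.63 ± 0.243 had an adjusted p of 0.0568, and passed without rounded replicate 5 (-0.749, adjusted p = 0.0144).

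**Figure D4:**
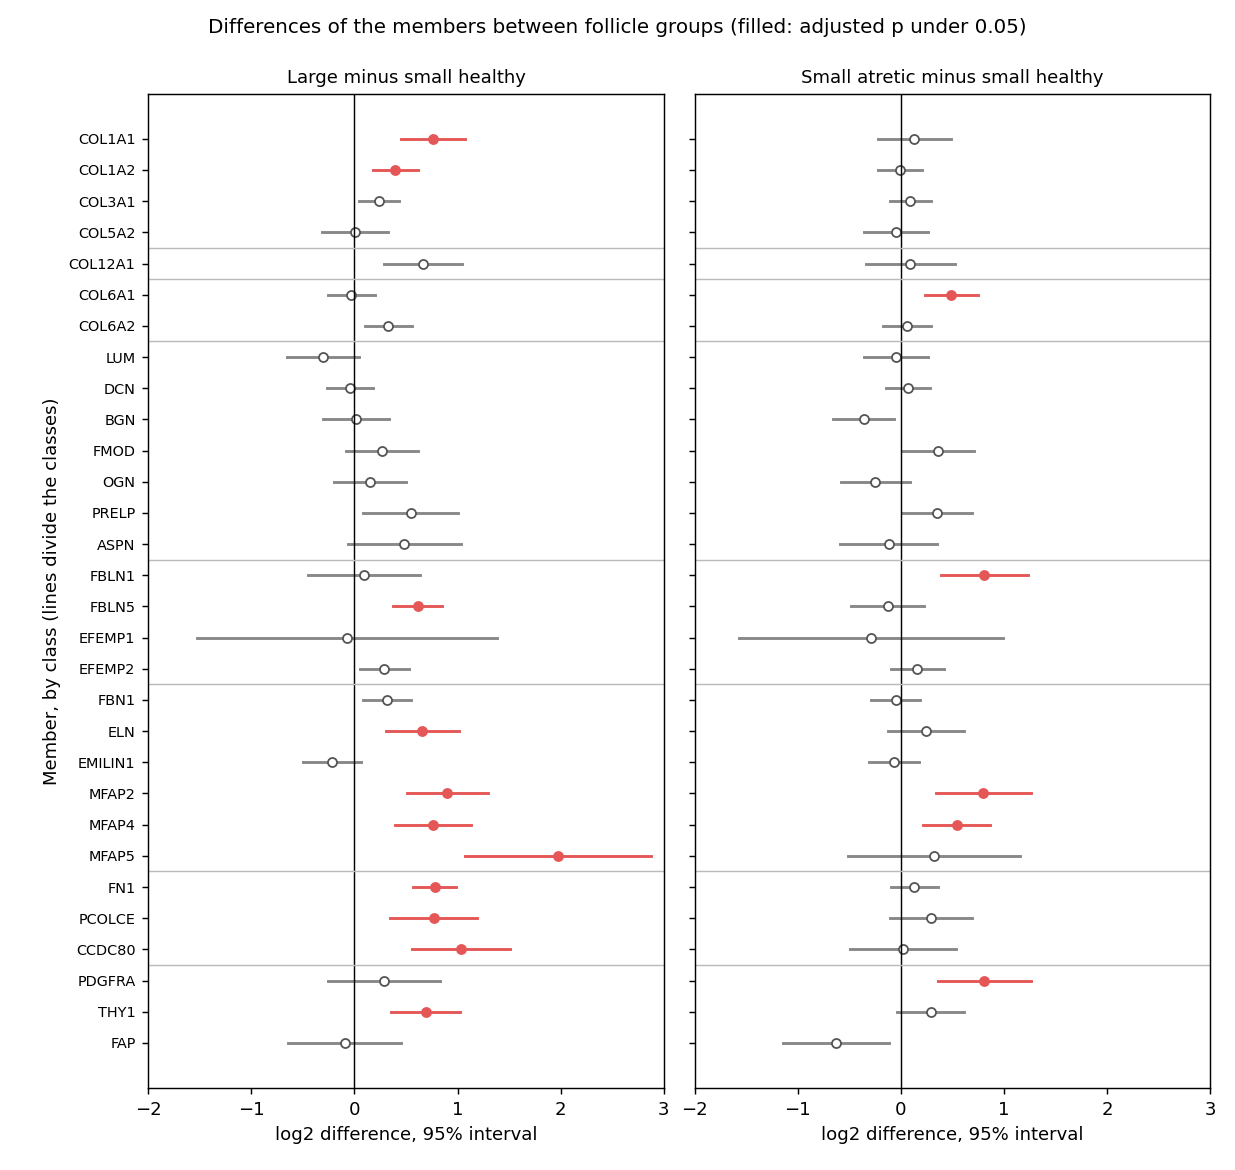
Log2 difference (point) and 95% interval (line) of each of the 30 matrix genes, for large minus small healthy (left) and small atretic minus small healthy follicles (right), by class; filled red points passed at an adjusted p under 0.05. On the left 11 points are filled, all above 0, with MFAP5 at 1.975 farthest out and none in the proteoglycan class; on the right 5 are filled, all above 0.

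Set side by side, the fibril-forming collagens, the proteoglycans and the elastic and microfibril genes had median log2 differences of 0.315, 0.15 and 0.71 in large follicles, with 2 of 4, 0 of 7 and 4 of 6 genes higher. On the level of single arrays, the mean of the 4 fibril-forming collagens stood 0.225 to 0.475 above its small healthy mean on the large arrays, while the small healthy arrays lay between -0.275 and 0.3. The mean of the 7 proteoglycans stood 0.0943 to 0.223 above on the large arrays, and the highest small healthy array was at 0.209. The mean of the 6 elastic and microfibril genes stood 0.42 to 0.937 above, and the highest small healthy array was at 0.27. Thus the elastic and microfibril mean separated large from small healthy follicles without overlap, and the other 2 means did not. That mean includes MFAP5, whose difference of 1.975 was the largest of the 6. FBN1 did not pass, and EMILIN1 differed by -0.215. A mean without MFAP5 was not taken, so the separation may rest on that gene. A difference between classes was not tested, because the classes hold different genes read by different probes.

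**Figure D5:**
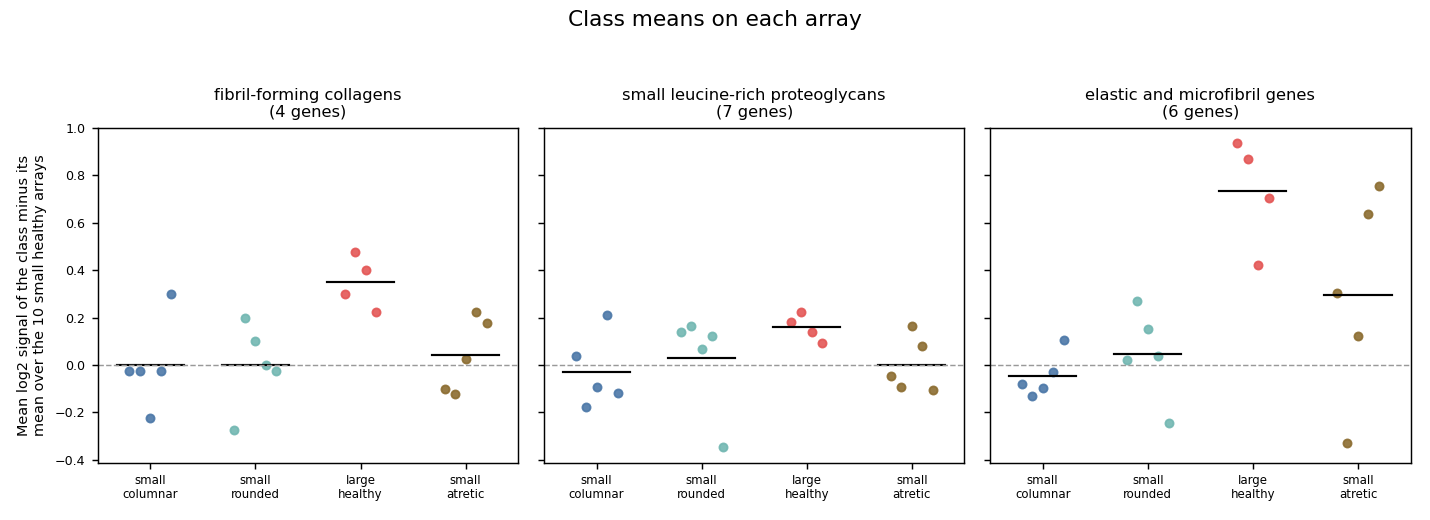
Mean log2 signal of the 4 fibril-forming collagens, the 7 small leucine-rich proteoglycans and the 6 elastic and microfibril genes on each of the 19 arrays, relative to the class mean over the 10 small healthy arrays (dashed line), with 1 point per follicle and a line at the group mean. Large follicles stand 0.42 to 0.937 above the dashed line for the elastic and microfibril genes and 0.0943 to 0.223 above it for the proteoglycans, and atretic follicles spread from -0.33 to 0.753 for the elastic and microfibril genes.

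In small atretic compared with small healthy follicles 5 of the 30 genes were higher, FBLN1, COL6A1, PDGFRA, MFAP2 and MFAP4, and 0 were lower. This was 16.7% of the genes, near the 16.9% of the 15470 probe sets tested that were higher, whereas 15.1% of probe sets were lower. The median log2 difference was 0.09, beside 0.01 over all probe sets, none of the 30 genes reached a 2-fold change (2.08% of probe sets did so upwards), and for none of them did all atretic arrays lie above all small healthy arrays (1.42% of probe sets). All 5 calls were lost with the rounded follicles alone as controls, with differences of 0.42 to 0.74 and adjusted p of 0.102 to 0.165. With each array centred on its median, 2 genes, BGN and FAP, were lower and 5 were higher. The atretic arrays themselves differed, and the elastic and microfibril mean ran from 0.33 below its small healthy mean on replicate 2 to 0.753 above it on replicate 5.

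Some markers of other cell types also differed between the groups. Of all probe sets tested, 16.9% were higher and 15.1% lower in atretic, and 2.59% higher and 0.983% lower in large follicles. The single endothelial and the single steroidogenic call in atretic follicles, given below, were near these shares. In atretic follicles 8 of 8 measured immune markers were higher, and their mean lay between 4.81 and 6.09 on the atretic and between 3.65 and 4.74 on the small healthy arrays. Of the 10 smooth muscle and pericyte markers 4 were higher and 1 was lower in atretic follicles (means 6.7 to 7.68 against 6.53 to 7.48), and of 7 endothelial markers tested 1, CLDN5, was higher. In large follicles 3 of the 10 smooth muscle and pericyte markers, DES, LMOD1 and MYLK, were higher, with means of 7.22 to 8.1. Of the other lists, 1 of 8 immune, 0 of 7 endothelial and 0 of 7 steroidogenic markers were higher there. The median log2 differences in large follicles were 0.68 for smooth muscle and pericyte, 0.545 for endothelial, 0.525 for immune and 0.12 for steroidogenic markers. The endothelial mean lay between 5.3125 and 5.9375 on the large and between 4.825 and 5.325 on the small healthy arrays. Of the 7 steroidogenic markers 1, CYP11A1, the enzyme that starts steroid synthesis from cholesterol, was lower in atretic follicles by 1.31 ± 0.285 on the log2 scale (adjusted p = 0.00529), with a median of -0.39 over the 7. Of 7 granulosa markers tested in large follicles 1, AMH, was lower and 0 were higher, while the median difference of the list was 0.2. Of 6 tested in atretic follicles 2, AMH and INHBA, were lower and 0 were higher, with a median of -0.765. The part of these cell types in the matrix results was not tested.

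Between the rounded and the columnar small healthy follicles, 0 of the 30 genes passed, as did 0% of the 15570 probe sets (limma, smallest adjusted p 0.996). At an unadjusted p under 0.05 the counts were 0 of the 30 genes and 360 probe sets (2.31%). The differences ran from -0.16 for ELN to 0.36 for MFAP2. MFAP2 gave 7.2, 6.7, 7.0, 6.3 and 6.7 in rounded and 6.7, 6.6, 6.3, 6.3 and 6.2 in columnar follicles, and the 95% interval of the difference was -0.0288 to 0.749. COL6A2 differed by 0.2 ± 0.108, MFAP4 by 0.24 ± 0.182, DCN by 0.18 ± 0.106, FN1 by 0.14 ± 0.102, FBLN5 by -0.14 ± 0.118 and PCOLCE by -0.14 ± 0.217. The 95% intervals of the collagens COL1A1 and COL3A1 were -0.285 to 0.405 and -0.238 to 0.198. For COL6A1, COL12A1, PRELP, FBLN1, PDGFRA and FAP the sizes were between 0.02 and 0.14. Second probe sets of COL1A1, COL6A2 and PRELP had the opposite sign of the first here, with none passing.

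Large healthy and small atretic follicles were also compared directly, a comparison added after the values had been seen. With 4 against 5 arrays, 0 of the 30 genes and 0% of 15326 probe sets passed (limma, smallest adjusted p 0.126), while 14 of the 30 genes and 2763 probe sets (18%) had an unadjusted p under 0.05. FN1 and CCDC80 did not overlap between the groups (1.36% of probe sets had every large above every atretic array), at differences of 0.65 ± 0.127 (adjusted p = 0.138) and 1.015 ± 0.246 (adjusted p = 0.141). COL1A1 differed by 0.635, COL1A2 by 0.405, FBLN5 by 0.745 and MFAP5 by 1.655, with adjusted p between 0.165 and 0.201. FBLN1, PDGFRA and COL6A1 had the opposite sign, with -0.715, -0.525 and -0.52. MFAP2 and MFAP4 differed by 0.1 ± 0.295 and 0.22 ± 0.228. Second probe sets of COL3A1, COL6A1 and COL6A2 had the opposite sign of the first. In 1 fit of all 4 groups FN1 passed with the same difference (adjusted p = 0.0328).

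Further genes of the matrix and of its assembly were counted from lists chosen with earlier results of these data known. The study had reported LTBP1, LTBP2, TNXB and P4HA3 as higher in large follicles. The counts in large follicles are therefore not independent of that report. Of the other matrix genes, 23 of 33 were measured and 17 tested in large follicles, of which 4 were higher and 0 lower, with a median difference of 0.165. The shares of all probe sets in large follicles were 2.59% higher and 0.983% lower. LTBP1, which holds latent TGFβ on microfibrils, was higher by 1.495 ± 0.255 (adjusted p = 0.00773), and TNXB, a tenascin that binds collagen fibrils, by 1.09 ± 0.27 (adjusted p = 0.0396). The other two, LTBP2, a microfibril protein, and OMD, a small leucine-rich proteoglycan, entered the test only through the large follicles. LTBP2 gave signals of 3.9 to 4.3 in large and 2.3 to 3.4 in small healthy follicles, and OMD gave 3 to 3.4 and 2.3 to 3, with small healthy means of 2.87 and 2.62 under the detection limit of 3, so their changes have no exact size here. In atretic follicles 3 of 16 tested were higher and 3 lower, counts near the shares of all probe sets (16.9% and 15.1%), and TGFBI, a collagen-binding adhesion protein, was higher by 1.12 ± 0.191 (adjusted p = 0.00187).

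Of the genes that process collagen and elastin, 20 of 27 were measured and 19 tested in large follicles, with 4 higher and 0 lower and a median of 0.185. These counts stand beside 2.59% of all probe sets higher and 0.983% lower. LOX, which cross-links collagen and elastin, was higher by 1.01 ± 0.253 (adjusted p = 0.0408), and P4HA3, a subunit of prolyl 4-hydroxylase, by 1.23 ± 0.22 (adjusted p = 0.00938). In atretic follicles 2 of 18 were higher and 4 lower, beside 16.9% and 15.1% of all probe sets, so that neither count sets these genes apart. PCOLCE2, a relative of PCOLCE, was higher there by 1.1 ± 0.265 (adjusted p = 0.00831), and the 4 lower genes were P4HA1, P4HA2, P4HB and SERPINH1, with differences of -0.41 to -0.53.

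The matrix genes also differed in how much they varied among the 10 small healthy follicles. EFEMP1 had the widest spread, with an SD of 1.39 log2 units, larger than that of 99.9% of probe sets. It gave 5.1, 6.6, 3.1, 2.7 and 4.7 in columnar and 3.1, 4.8, 6.1, 3.0 and 5.3 in rounded follicles, so that high and low signals occurred in both groups. MFAP5 followed with an SD of 0.691 and FAP with 0.533. The narrowest were COL6A1 with 0.134, COL3A1 with 0.16 and COL1A2 with 0.17. The median SD was 0.29 over the 30 genes and 0.213 over the probe sets tested, and 19 of the 30 genes were above the latter. An SD on the log2 scale also depends on the brightness of a probe set, and the deposited signals carry 1 decimal.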

How the data were processed

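Theca interna RNA was measured on 19 one-colour Affymetrix bovine arrays. The authors used Partek (version 6.5 in the submitters' processing notes) for RMA summaries and quantile normalization, and deposited log2 signals per probe set, with 1 decimal. The sources do not say whether all arrays entered 1 normalization. Of 24127 probe sets, 13317 carry 1 gene symbol. The gene list, its classes and the marker and pathway lists were chosen with earlier results of these data known.

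Groups and replicate numbers came from the labels. After the study's methods, tests were limited to probe sets above a log2 signal of 3 in 50% or more of the follicles of any type compared, array controls excluded. Groups were compared with limma 3.58.1 in R 4.3.3 (lmFit and eBayes), and p-values were adjusted after Benjamini and Hochberg (Benjamini-Hochberg) across every probe set that passed the filter. Large (4) and small healthy (10) arrays, atretic (5) and small healthy arrays, and large and atretic arrays were fitted separately, and rounded and columnar follicles within the healthy fit. The scripts were tested on simulated data. Named with full values were genes that passed and the 2 of each class with the smallest p. Alternatives changed the filter, scaling, model, test (the methods' plain test), controls and probe sets, or left out arrays; leaving out the 2 arrays with the highest CYP19A1 and the comparison of large with atretic follicles were added after the data were seen. The number of arrays limits the precision.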

Additional observations from a re-analysis of the deposited data

Results flagged for a closer look

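In 120 groups, each of the 30 genes in each of the 4 follicle groups, 4 arrays lay far from the others of their group by Dixon's criterion, which by chance marks about 1 in 20 groups (5%), so 4 are fewer than chance alone would give. COL6A1 had a log2 signal of 10.5 on large replicate 1, beside 9.9 to 10 on the other large arrays. OGN had 9.2 on large replicate 4, beside 9.7 to 9.8. COL3A1 had 11.9 on large replicate 2, beside 11.8 on each of the others, a gap of a single step of the deposited decimal. MFAP5 had 5.7 on columnar replicate 5, beside 3.9 to 4.3 on the other columnar arrays, and 1 rounded array had the same signal of 5.7.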

How the results depend on the processing

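The number of matrix genes higher in large than in small healthy follicles, 11, was 1 with the rounded and 5 with the columnar follicles alone as controls, 4 by the methods' plain test, 2 with a 2-fold change required, 1 without the 2 arrays with the highest CYP19A1, and 4 to 12 when single arrays were left out. In atretic follicles the 5 higher became 0 with the rounded follicles alone and 0 with a 2-fold change required, and 5 to 6 without single arrays; the 0 lower became 2 with arrays centred on their median, 1 with the columnar follicles alone, 1 with the mean of a gene's probe sets, and 0 to 1 without single arrays. In large against atretic follicles 0 became 1 in 1 fit of all groups. Class medians moved where few genes were left by a filter at a signal over 5: filament collagens to -0.03 in large, 0.49 in atretic and -0.52 in large against atretic follicles, and surface proteins to 0.81 and -0.0625 in the last 2; the mean of probe sets moved the filament collagens to 0.0692 in atretic follicles, and leaving out single arrays gave medians of 0.02 (without large replicate 1) to 0.32 for proteoglycans and 0.01 (without large replicate 2) to 0.362 for fibulins in large against atretic follicles, 0.0433 (without large replicate 1) to 0.477 for surface proteins and 0.0833 (without large replicate 2) to 0.207 for proteoglycans in large follicles, and 0.105 (without atretic replicate 5) to 0.51 for elastic and microfibril genes in atretic follicles. The causes were not tested.

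Label replicate numbers were not treated as pairs in the main fits. Of 23 same-numbered pairs, 9 correlated above 0.1 (-0.346 to 0.57), and 5 of 19 arrays correlated best with their own number. No expected count without pairing was computed, so these counts cannot decide whether the numbers pair the arrays. With the replicate block, 8 genes were higher in large follicles, and 5 were higher and 2 lower in atretic ones.

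Of 1991 single-gene values under the alternatives, 64 changed sign, each of a gene that passed neither before nor after and at most 0.33 in size; 302 calls were kept, 95 were lost and 15 gained. In large follicles FN1 kept its call under 25 of 25 alternatives, COL1A1 and FBLN5 under 23, MFAP2 under 22, MFAP5 and CCDC80 under 19, THY1 under 17 and MFAP4 under 15 of 24. The number of arrays, and signals near the detection limit for MFAP4, PRELP and FAP, limit what can be seen.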

Other observations

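The 5 matrix genes that were higher in atretic follicles were also looked at within the large group, a choice made after the values were seen. For each of the 5, large replicate 1 was the highest of the 4 large arrays. It gave 10.5 for COL6A1 (9.9 to 10 on the other large arrays), 9.2 for FBLN1 (7.2 to 7.7), 8.6 for PDGFRA (7.3 to 7.9), 7.9 for MFAP2 (7.2 to 7.7) and 4.5 for MFAP4 (3.6 to 4.2). The same array had the lowest CYP19A1 signal of the large group, 1.9 against 3.3 to 5.8. It is 1 follicle, and no test was made of this pattern.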
